A study of Mus musculus with 16 samples.

Results

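Thrombospondins are multidomain glycoproteins of the extracellular matrix, and the genes Thbs1, Thbs2, Thbs3 and Thbs4 were followed here across all cardiomyocyte arrays of a mouse study that deleted GPER, an estrogen receptor of the G protein-coupled class. The members were the probe sets that the platform annotation assigns to one of these gene symbols. There were 4 such probe sets among 45141 on the array, and they covered 3 of the 4 genes: Thbs2 with 1422571_PM_at and 1450663_PM_at, Thbs3 with 1416623_PM_at and Thbs4 with 1449388_PM_at. Thbs1 is not analysed here. RNA came from ventricular cardiomyocytes of 16 mice, 1 array per mouse, with 4 mice of each sex and genotype, GPER KO or intact. KO mice carry the genotype label GPER-knockout and intact mice the label wild type, and the study describes the deletion as cardiomyocyte-specific. The promoter that drives the recombinase is not given in the sources used here. The labels give an age of 15 weeks for all mice, and the study's methods give an older one. The cells were released by collagenase perfusion, strained and spun at low speed, which enriches cardiomyocytes without sorting them.

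Thrombospondins are matricellular proteins: they are secreted into the matrix and change how cells and matrix signal to each other rather than building fibres. Thbs1 and Thbs2 form trimers, carry the type 1 repeats that gave the family its best known activities and inhibit new vessel growth through the receptors Cd36 and Cd47. Thbs3, Thbs4 and the related cartilage oligomeric matrix protein Comp form pentamers and lack those repeats. In heart and skeletal muscle Thbs4 is known as a gene induced by pressure overload and injury, and inside the cell it binds Atf6, a sensor of protein folding stress in the endoplasmic reticulum (ER). Thbs2 is known in the heart for matrix integrity, and Thbs3 for an intracellular role in integrin trafficking.

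The bases just upstream of the 3 measured genes are shown so that the promoter of the member that differed in males, Thbs4, can be set beside those of the members that did not pass the test with all arrays. Each run holds the 250 bases before the RefSeq start, in build GRCm38.p6 and in the direction of the gene. Capitals mark the motifs found on either strand. The letters searched were TATAAA for the TATA box, CANNTG for the E-box, GGGCGG for the GC box, and for the CCAAT box the letters of its name. None of the matches overlapped another.
Thbs4, chr13:92794819-92795068, minus strand: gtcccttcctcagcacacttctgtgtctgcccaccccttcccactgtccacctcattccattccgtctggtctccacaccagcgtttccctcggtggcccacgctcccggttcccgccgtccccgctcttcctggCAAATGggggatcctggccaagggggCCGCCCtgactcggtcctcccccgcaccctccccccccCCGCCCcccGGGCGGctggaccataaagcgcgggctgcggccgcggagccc
Thbs3, chr3:89214930-89215179, plus strand: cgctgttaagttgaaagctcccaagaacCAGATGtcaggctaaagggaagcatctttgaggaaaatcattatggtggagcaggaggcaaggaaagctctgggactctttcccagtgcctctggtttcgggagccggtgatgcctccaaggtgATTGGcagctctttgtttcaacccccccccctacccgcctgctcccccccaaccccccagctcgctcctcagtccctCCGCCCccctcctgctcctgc
Thbs2, chr17:14694263-14694512, minus strand: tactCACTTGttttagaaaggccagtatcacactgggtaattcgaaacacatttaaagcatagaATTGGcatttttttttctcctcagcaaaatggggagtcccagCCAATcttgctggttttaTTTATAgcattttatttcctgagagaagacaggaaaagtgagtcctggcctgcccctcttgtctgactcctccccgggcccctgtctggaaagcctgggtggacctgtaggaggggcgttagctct
The Thbs4 sequence was rich in G and C, at 70.8%, which is percentile 91.7 of 32851 windows of this length with a median of 52.4%. The Thbs3 and Thbs2 sequences had 58.8% and 46.8%. Upstream of Thbs4 there were 3 GC boxes and 1 E-box, with no TATA or CCAAT box. The Thbs3 window held 1 CCAAT box, 1 GC box and 1 E-box, and that of Thbs2 held 1 TATA box, 2 CCAAT boxes and 1 E-box. Among all windows, 32.7% hold a GC box, 66.2% an E-box, 33.8% a CCAAT box and 12.4% a TATA box. Neither an AP-1 site (TGANTCA, in 6.75% of windows), nor an ATF/CRE core (TGACG, in 17.8%), nor the palindromic estrogen response element (in 0.0639%) was found in the 3 windows. These matches describe letters and were not tested for binding.

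The values are log2 signals after robust multi-array averaging (RMA). Probe sets differ in how strongly they bind, so a signal is comparable between arrays and not between genes. Over the 16 arrays Thbs4 averaged 5.04 (percentile 75.1 of all probe sets), Thbs2 4.04 on 1450663_PM_at (percentile 61.9) and 2.93 on 1422571_PM_at (percentile 30.1), and Thbs3 3.57 (percentile 52.3). With array medians of 3.47 to 3.51, the second Thbs2 probe set and Thbs3 lay near or under the middle of the array. A cardiomyocyte list of 11 measured markers averaged 12.3 to 12.4 on every array, led by myoglobin (Mb, 12.98). The targeted gene, Gper1, had a low signal on its 1 probe set (mean 2.81) and differed by −0.08 in females (limma adjusted p = 0.748), while the male difference was 0.01 (adjusted p = 0.983). The position of that probe set relative to the deleted part is not known here, so it does not check the genotype labels. Array medians and correlations between arrays (0.982 to 0.997) set no array far apart. Endothelial markers, however, averaged 6.597 and 6.601 in female intact 421 and 422 against 6.13 and 6.11 in the other intact females (418 and 425). Results that these 2 arrays move by much are also given without them. Among intact males they averaged 6.10 in mouse 430 against 6.58 (452), 6.66 (453) and 6.83 (433). All animal numbers of females are lower than those of males, so sex and the order of animals cannot be told apart.

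Thbs4 differed between genotypes in males and not detectably in females. Its log2 values in male GPER KO hearts were 5.32 (mouse 431), 5.27 (432), 5.67 (444) and 5.72 (451). In male intact hearts they were 4.42 (mouse 430), 4.85 (433), 4.81 (452) and 5.08 (453). The male groups did not overlap, and the lowest male KO array (5.27) also lay above the highest of the other 12 arrays (5.11, female KO 426). The share of all genes with such a separation from the other 12 arrays was not computed, so it is given as a description only.

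In females the KO values were 4.72 (mouse 417), 5.01 (419), 5.11 (426) and 5.03 (427). Female intact arrays gave 4.97 (mouse 418), 4.74 (421), 4.93 (422) and 5.02 (425). These groups overlapped over most of their range, with 1 low array in each. In females the groups of 5.69% of genes did not overlap. The group means were 5.49 ± 0.23 (SD, n = 4) in male KO, 4.97 ± 0.17 (SD, n = 4) in female KO, 4.91 ± 0.12 (SD, n = 4) in female intact and 4.79 ± 0.28 (SD, n = 4) in male intact hearts. The last 3 of these differed from their neighbours by less than the larger SD of each pair, and male KO stood above female KO by more than the SD of either group.

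**Figure D1:**
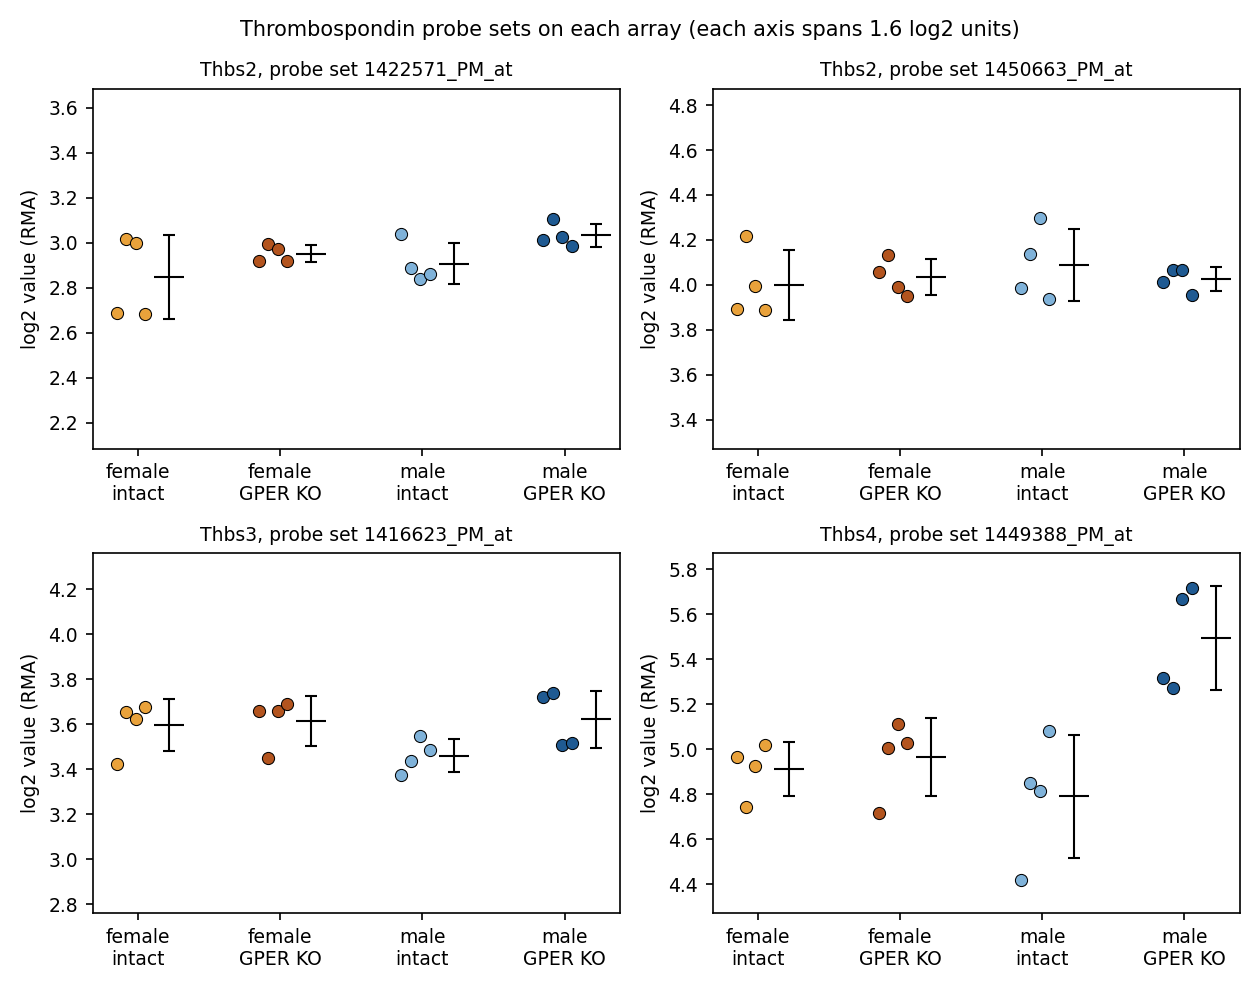
Log2 values (vertical axis) of the 4 thrombospondin probe sets on each array by group; points are mice, and the bars beside them give the mean and SD of 4 mice. The 4 male KO points of Thbs4 lie between 5.27 and 5.72, above the other 12 arrays, while the groups overlap for Thbs2 and Thbs3. The share of all genes with such a separation from 12 arrays was not computed.

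In males the Thbs4 difference was 0.70 on the log2 scale (SE 0.13, 95% interval 0.42 to 0.98), a 1.63-fold higher signal (1.34 to 1.98). It passed the test with an adjusted p of 0.0215 from limma over 17097 genes, at rank 58 by p, and with 0.0356 when all 45141 probe sets were adjusted together. A gene is called here when its adjusted p is under 0.05, and 0.62% of all genes were called in this comparison. The groups of 6.21% of genes did not overlap in males, in either direction. The exact permutation test of Thbs4 alone gave p = 0.0286 (two-sided), the smallest that 4 against 4 arrays allow, and 0.229 after adjustment over the 8 tests of 4 probe sets in each sex. Mice 430 to 433 alone gave a KO minus intact difference of 0.66 (2 against 2 arrays) and mice 444 to 453 gave 0.75 (2 against 2). This split by animal number was chosen after the values were seen. Because every male KO value lay above every male intact value, any such split gives a positive difference, so its sign adds no support.

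The Thbs4 call in males depended on single arrays. With each of the 16 arrays left out in turn the difference stayed between 0.58 and 0.80 and the adjusted p ran from 0.0120 to 0.0659. It was over the threshold without male intact 430 (difference 0.58, adjusted p = 0.0659), male intact 433 (0.72, adjusted p = 0.0530), male KO 444 (0.64, adjusted p = 0.0566), male KO 451 (0.63, adjusted p = 0.0638) or male intact 452 (0.71, adjusted p = 0.0614). Male intact 430, with the lowest Thbs4 value, also had the lowest fibroblast, endothelial, smooth muscle or pericyte and macrophage marker means of its group. Its cardiomyocyte marker mean (12.44) was the highest of that group. The part of cell content in its Thbs4 value was not tested. With the male arrays fitted alone the difference was the same and the limma adjusted p was 0.0958.

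**Figure D2:**
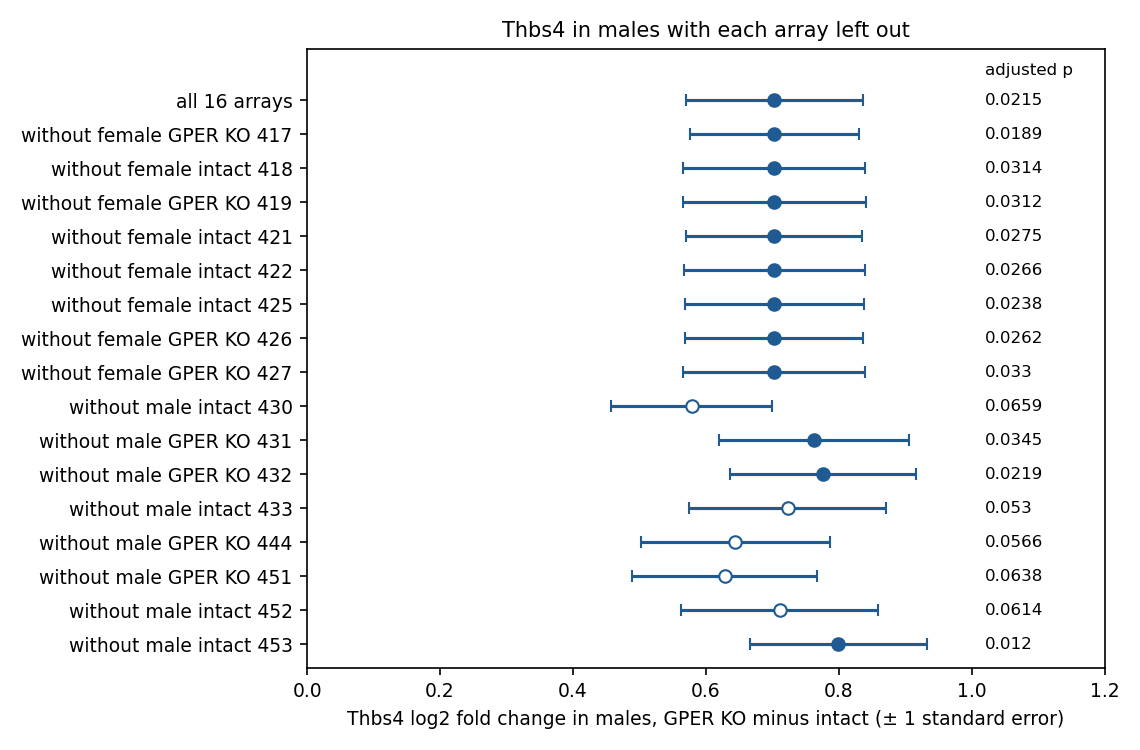
Thbs4 log2 fold change in males (horizontal axis, GPER KO minus intact, bars are 1 standard error) with all 16 arrays and with each left out, and the limma adjusted p at the right. Filled points pass 0.05 and open points do not; the estimate runs from 0.58 without male intact 430 to 0.80 without male intact 453.

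Thbs4 in females differed by 0.05 (SE 0.13, 95% interval −0.23 to 0.33, limma adjusted p = 0.910), so that a change of up to 1.26-fold upward lies within the interval. The two-sided exact permutation test gave p = 0.571. In this comparison 0.281% of genes were called. Without female intact 421 and 422 the difference was −0.03. The mean of the 2 sexes was 0.38 (SE 0.09), with a limma adjusted p of 0.0634 where 1.36% of genes were called. Without female KO 417 the adjusted p of that mean was 0.0424, and without male intact 453 it was 0.0304.

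The difference of the Thbs4 effect between the sexes, male minus female, was 0.65 (SE 0.19, 95% interval 0.25 to 1.05). Its unadjusted limma p was 0.00321 and its adjusted p 0.426, so a sex difference in the effect did not pass the test. This comparison called 0% of genes, although 1875 genes had an unadjusted p under 0.05. Between the sexes Thbs4 was 0.53 higher in male than in female KO hearts (SE 0.13, adjusted p = 0.173), a comparison in which 0.0702% of genes were called. Among intact mice the male minus female difference was −0.12 (SE 0.13, adjusted p = 0.676), where 0.579% of genes were called.

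**Figure D3:**
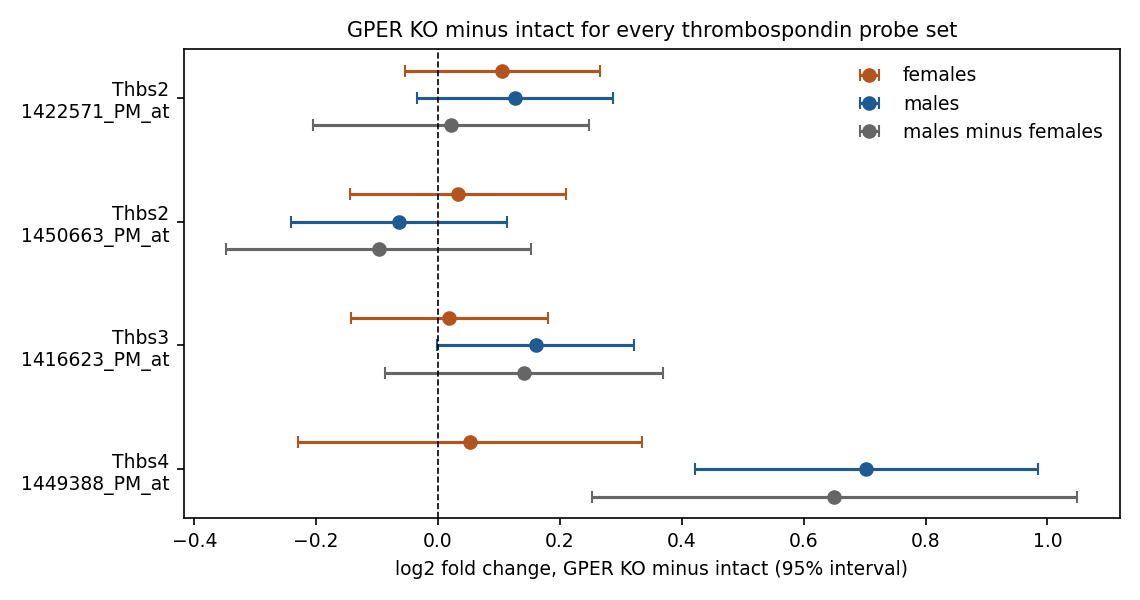
Log2 fold change (horizontal axis, GPER KO minus intact, bars are 95% intervals) of each thrombospondin probe set in females, in males, and as the difference of the effects between the sexes. The Thbs4 intervals in males (0.42 to 0.98) and for males minus females (0.25 to 1.05) lie above 0, and the other intervals include 0.

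Thbs3, the other measured pentameric member, showed a smaller difference in males that did not pass the test. Its male KO values were 3.72 (mouse 431), 3.74 (432), 3.51 (444) and 3.52 (451), and its male intact values were 3.37 (430), 3.44 (433), 3.55 (452) and 3.49 (453). Mice 431 and 432 were above all intact males, and the 2 other KO males lay inside the intact range. The difference was 0.16 (SE 0.08, 95% interval −0.001 to 0.32, unadjusted p = 0.0515, limma adjusted p = 0.496), with p = 0.114 in the exact permutation test.

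In females the Thbs3 values were 3.66 (mouse 417), 3.45 (419), 3.66 (426) and 3.69 (427) in KO and 3.42 (418), 3.65 (421), 3.62 (422) and 3.68 (425) in intact hearts. Each female group held 1 low array and 3 close together. The female difference was 0.02 (SE 0.08, 95% interval −0.14 to 0.18, limma adjusted p = 0.947), and 0.06 without intact mice 421 and 422 (adjusted p = 0.974). For the effect between the sexes the difference was 0.14 (95% interval −0.09 to 0.37, adjusted p = 0.648). Intact males were lower than intact females by a log2 difference of −0.13 (limma adjusted p = 0.380).

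Thbs2, a trimeric member made mainly by fibroblasts in many tissues, was read by a pair of probe sets, and neither passed the test with all arrays in the fit. On 1450663_PM_at, the brighter one, KO males gave 4.01 (mouse 431), 4.07 (432), 4.07 (444) and 3.95 (451), and intact males 3.99 (430), 4.14 (433), 4.30 (452) and 3.94 (453). KO females gave 4.06 (417), 4.13 (419), 3.99 (426) and 3.95 (427), and intact females 3.89 (418), 4.22 (421), 3.997 (422) and 3.89 (425). The groups overlapped in both sexes, and the intact arrays spread more widely than the KO arrays. The difference was −0.06 in males (SE 0.08, 95% interval −0.24 to 0.11, limma adjusted p = 0.873) and 0.03 in females (95% interval −0.14 to 0.21, adjusted p = 0.909). Without female intact 421 and 422 the female difference was 0.14 (adjusted p = 0.875). These mice held the highest intact values of females on this probe set, so their omission can only raise the difference.

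The dimmer Thbs2 probe set, 1422571_PM_at, gave 3.01 (mouse 431), 3.11 (432), 3.03 (444) and 2.99 (451) in KO males and 3.04 (430), 2.89 (433), 2.84 (452) and 2.86 (453) in intact males. In KO females it gave 2.92 (417), 2.99 (419), 2.97 (426) and 2.92 (427), and in intact females 2.69 (418), 3.02 (421), 2.998 (422) and 2.68 (425). Intact females thus fell into a low pair and a high pair, the high pair being mice 421 and 422. Its differences were 0.13 in males (limma adjusted p = 0.707 over all probe sets) and 0.11 in females (adjusted p = 0.654). The mean of the sexes was 0.12 (95% interval 0.003 to 0.23, unadjusted p = 0.0453, adjusted p = 0.528). Without female intact 421 and 422 the female difference of this probe set was 0.27 (SE 0.06, limma adjusted p = 0.394). Omitting this high pair can only raise the difference. In the same fit the mean of the sexes was 0.20 (SE 0.04) and passed the test (limma adjusted p = 0.0468), where 0.696% of all probe sets were called. With single arrays left out that mean ran from 0.09 to 0.14 and passed in 0 of 16 fits. The 2 Thbs2 probe sets therefore had opposite signs in males, and their deviations from the group means correlated at r = 0.391 over the 16 arrays.

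Comp, the fifth thrombospondin, is known from cartilage and tendon and had a signal of 2.57 to 3.05 over the arrays, at percentile 23.3 of all probe sets. The female difference was −0.07 (limma adjusted p = 0.765) and the male one 0.14 (adjusted p = 0.622). In intact hearts its male minus female difference was −0.21 (unadjusted p = 0.0200, adjusted p = 0.199). With all 16 arrays Thbs4 was thus the 1 called gene among the 3 members and Comp, in the male comparison.

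The members did not move together within groups. Deviations of Thbs4 from its group means correlated with those of Thbs3 at r = −0.231, with those of Thbs2 at r = −0.269 on the brighter probe set and −0.492 on the dimmer one, and with those of Comp at r = 0.134. All points share the same 16 arrays and their normalization, and no p is given. Spread within groups was widest for Thbs4 (SD 0.21) and 0.11 to 0.12 for the other member probe sets.

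Genes with the pattern most like each member were sought among 8547 or 8548 genes of above-median signal, by the Pearson correlation of deviations from the group means over the 16 arrays. For Thbs4 they were Fam136a (r = 0.904), Uaca (r = 0.901) and Sh3glb1 (r = 0.826). Thbs3 had Stmn1 (r = 0.835), Ap3s2 (r = 0.820) and Dpp3 (r = 0.771). Thbs2 had Polh (r = 0.860), Prrg3 (r = 0.814) and Fam24b (r = 0.802). These are the highest of all correlations computed and are given as a description.

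Receptors and binding partners of thrombospondins did not pass the test in either sex. Of 23 listed genes 22 were measured, and 0 were called by limma in females, in males or in the mean of the sexes, with 2, 4 and 3 genes at an unadjusted p under 0.05. Over all 17097 genes 0.281%, 0.62% and 1.36% were called in these comparisons, and 2152, 1730 and 1995 genes had such an unadjusted p. The same values stand beside the counts of the lists below. In males 11 of the 22 lay above 0 and the median log2 fold change was −0.02, beside a median of 0.01 over all genes. In females 12 lay above 0, with a median of 0.03 beside −0.02. Sdc4, a heparan sulfate proteoglycan of the cell surface that thrombospondins bind, differed by 0.39 in males (SE 0.11, limma adjusted p = 0.128) and by 0.30 in the mean of the sexes (adjusted p = 0.0677). Itgb2, the integrin chain of leukocytes, differed by 0.18 in the mean of the sexes (adjusted p = 0.0861). Itgav, the integrin chain that pairs with Itgb3 to bind matrix proteins, differed by 0.57 in females (adjusted p = 0.183). Itgav, Cd36, Cd47 and Cacna2d1 were named after their values were seen. The classical receptors gave −0.28 in males for Cd36 (adjusted p = 0.358), a fatty acid and thrombospondin receptor abundant in muscle, and 0.14 for Cd47 (adjusted p = 0.546). For Cacna2d1, the calcium channel subunit through which thrombospondins promote synapses, the log2 difference was 0.49 in females (adjusted p = 0.449), against −0.46 for males (adjusted p = 0.610).

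The ATF6 and ER chaperone list was set beside Thbs4 because of the intracellular role given above. All 22 genes were measured and 0 were called by limma in females, in males or in their mean, with 3, 6 and 2 at an unadjusted p under 0.05. Over all 17097 genes, 2152, 1730 and 1995 had such a p, and 0.281%, 0.62% and 1.36% were called. Above 0 lay 12 genes in females (median 0.01) and 13 in males (median 0.04). Hyou1, an ER chaperone induced by stress, differed by 0.35 in males (SE 0.08, limma adjusted p = 0.0709) and by −0.20 in females (adjusted p = 0.335). The log2 difference of Hsp90b1, the ER form of Hsp90, was 0.42 in females (adjusted p = 0.234) and 0.01 in males. Atf6 itself, named after its values were seen, was at −0.09 in males (adjusted p = 0.819), with 0.17 for females (adjusted p = 0.465). With 0.62% of all genes called in males, 0 called of 22 says little, and a link of this list to Thbs4 was not tested. Between the sexes of intact mice 3 genes of the list were called, where 0.579% of all genes were. Atf6 (0.42, adjusted p = 0.0491) and the cochaperone Dnajb9 (0.38, adjusted p = 0.0480) were higher in males, and Hyou1 was lower (log2 difference −0.39, adjusted p = 0.0480). These 3 were likewise named after their values were seen.

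Activation of latent TGF-beta, a cytokine that drives fibrosis, is a known activity of Thbs1. Of 20 listed genes of TGF-beta activation and early targets 19 were measured, and 1 was called in males (0.62% of all genes were) and 0 in females. The mean of the sexes called 1 higher and 1 lower, beside 1.36% of all genes. An unadjusted limma p under 0.05 was found for 4 genes in females, 5 in males and 7 in the mean of the sexes. Over all 17097 genes such a p was found for 2152, 1730 and 1995. Smad4, the shared partner of the receptor-activated Smads, was lower in KO males by a log2 difference of −0.31 (SE 0.06, limma adjusted p = 0.0410) and in the mean of the sexes (−0.23, adjusted p = 0.0183). Its male call was lost in 10 of the 16 fits that left 1 array out, those without mice 418, 421, 426, 427, 430, 433, 444, 451, 452 or 453, while the call in the mean of the sexes passed in all 16. Ccn2, a matricellular target of TGF-beta, was 0.83 higher in the mean of the sexes (SE 0.15, adjusted p = 0.00906), a call that passed in all 16 such fits. Females gave a Ccn2 difference of 0.78 (adjusted p = 0.169), and males one of 0.87 (adjusted p = 0.0924). In males 9 of the 19 genes lay above 0 (median −0.02), and in females 10 did (median 0.01).

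The list of other matricellular proteins, which holds Comp and none of Thbs1 to Thbs4, had 19 of 21 genes measured. The mean of the sexes called 3 of them higher and 1 lower, beside 1.36% of all genes called, and males 1 of 19, beside 0.62%. Lgals3, the galectin of macrophages and injured tissue, was 1.66 higher in KO males (SE 0.28, limma adjusted p = 0.00953) and 1.25 higher in the mean of the sexes (adjusted p = 0.00295), with 0 of 16 single-array omissions ending either call. Tnc, a matrix glycoprotein of remodelling tissue, was 0.25 higher in the mean (adjusted p = 0.0233). That call was lost without female KO 426 or 427, male intact 430 or male KO 432. Fbln1, a fibulin of basement membranes and valves, was lower in the mean by a log2 difference of −0.76 (adjusted p = 0.0190), a call lost without male intact 452. Ccn2 was the remaining gene called higher. In males 11 of 19 lay above 0, and in females 4 did, but without female intact 421 and 422 it was 12 of 19 in females. No gene of this list was called in females. Genes at an unadjusted limma p under 0.05 numbered 6 in females, 4 in males and 5 in the mean of the sexes.

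Proteins that share the type 1 repeat of Thbs1 and Thbs2, such as the Adamts proteases and properdin, had 41 of 47 genes measured. Adamtsl5, a secreted relative of those proteases, was the 1 gene called in males (0.42, SE 0.09, limma adjusted p = 0.0332) and in the mean of the sexes (0.28, adjusted p = 0.0308). The male call was lost in 5 of 16 single-array omissions (mice 432, 433, 451, 452 and 453) and the mean call in 11 (those 5 and mice 417, 418, 421, 425, 426 and 427). Over all genes 0.62% and 1.36% were called in these comparisons. Of the 41, 22 lay above 0 in males (median 0.01) and 19 in females (median −0.01). An unadjusted limma p under 0.05 was found for 2 genes in females, 4 in males and 4 in the mean of the sexes.

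The nitric oxide and cGMP pathway, which Thbs1 (not analysed here) inhibits through Cd47, had 11 of 12 genes measured and 0 called by limma. Genes at an unadjusted limma p under 0.05 numbered 0 in females, 2 in males and 3 in the mean of the sexes. Below 0 lay 9 of the 11 genes in males (median −0.20) and 7 in females (median −0.08, and −0.02 without female intact 421 and 422). Several genes of this list, such as Nos3, Flt1 and Kdr, are known from endothelial cells, and Kdr is on the endothelial marker list too. With all arrays, 12 of 12 endothelial markers lay below 0 in both sexes, and their part in this list was not tested. Flt1, a VEGF receptor of endothelial cells, differed by −0.40 in males (adjusted p = 0.230), and Kdr, the main signalling VEGF receptor, by −0.38 in the mean of the sexes (adjusted p = 0.286).

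**Figure D4:**
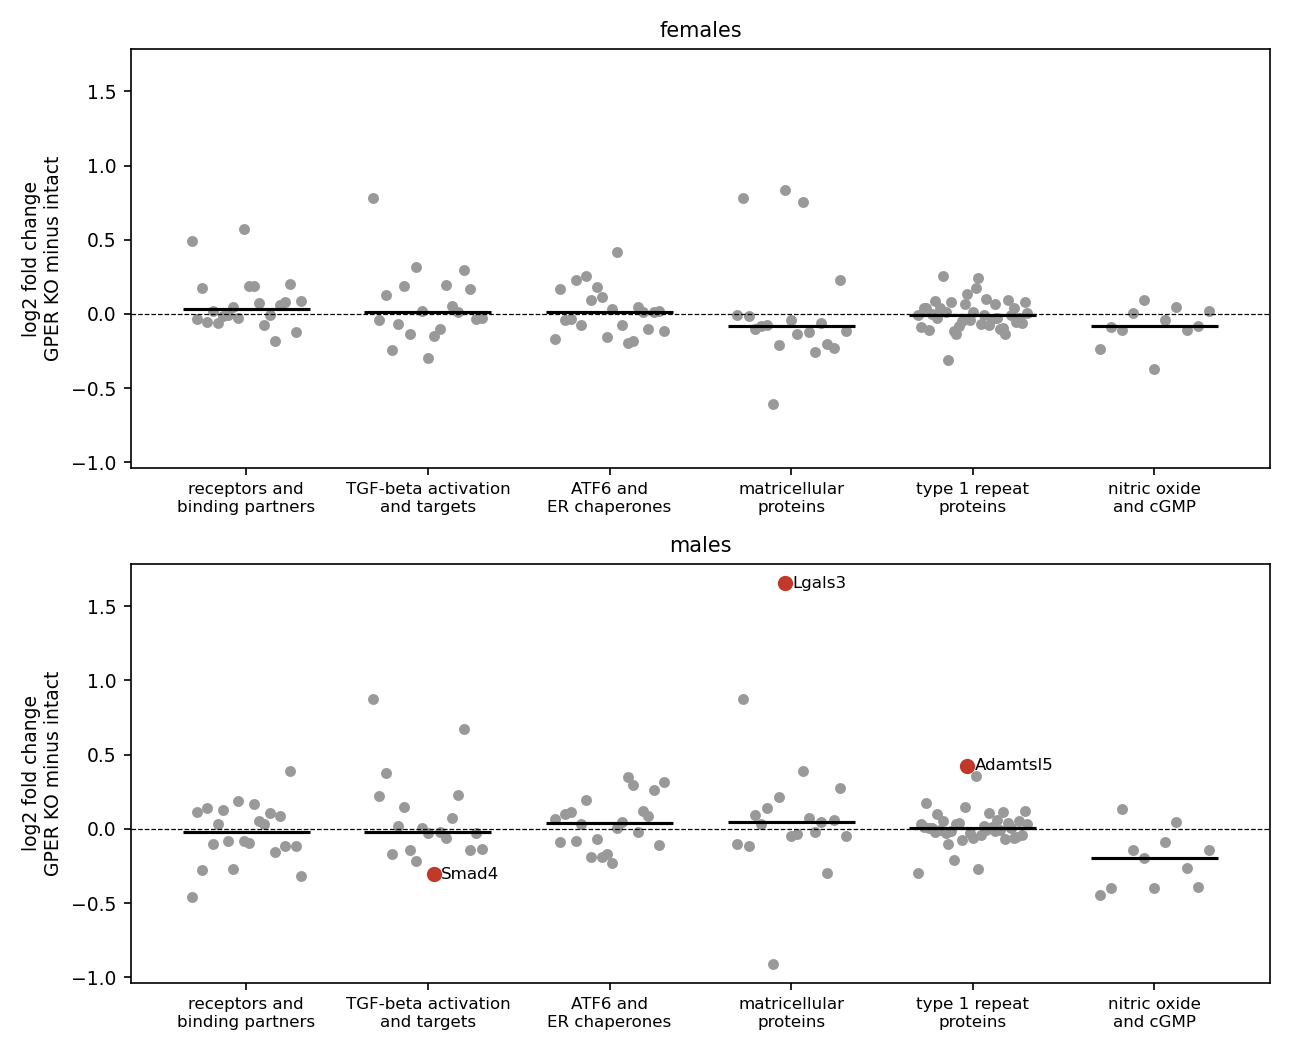
Log2 fold change (vertical axis, GPER KO minus intact) of each measured gene in 6 function lists, in females (upper panel) and males (lower panel); horizontal bars are list medians, and red points are genes with a limma adjusted p under 0.05. Red points stand only in the male panel: Lgals3 (1.66), Adamtsl5 (0.42) and Smad4 (−0.31).

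Among the cell type lists only the macrophage list held genes called between genotypes within a sex, in males. Fewer cells of a type and less RNA per cell cannot be told apart in such samples. In males 14 of 15 macrophage markers lay above 0 in KO hearts (median 0.70). Limma called 5 of them, beside 0.62% of all genes: Lyz2 (1.03), Mpeg1 (0.70), Cd68 (0.70), Ctss (1.30) and Tyrobp (0.83), with adjusted p of 0.00271 to 0.0414. Their list mean ran from 4.91 to 5.58 in KO males and from 4.51 to 5.09 in intact males. In females 13 of 15 lay above 0 with 0 called and 5 at an unadjusted p under 0.05, and the list mean was 4.71 to 4.99 in KO and 4.40 to 4.65 in intact hearts. The list means of the female groups did not overlap (median log2 fold change of the markers 0.31), and their Thbs4 values did. Within groups the deviations of Thbs4 and of the macrophage list correlated at r = 0.257 over the 16 arrays. KO male 451, with the highest Thbs4 value (5.72), had the lowest macrophage mean of its group (4.91). Intact male 453 had both the highest macrophage mean (5.09) and the highest Thbs4 value (5.08) of its group. Within intact males and within KO females, the order of the arrays by Thbs4 was their order by macrophage mean. Within KO males and within intact females it was not. The part of macrophages in the Thbs4 difference was not tested.

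**Figure D5:**
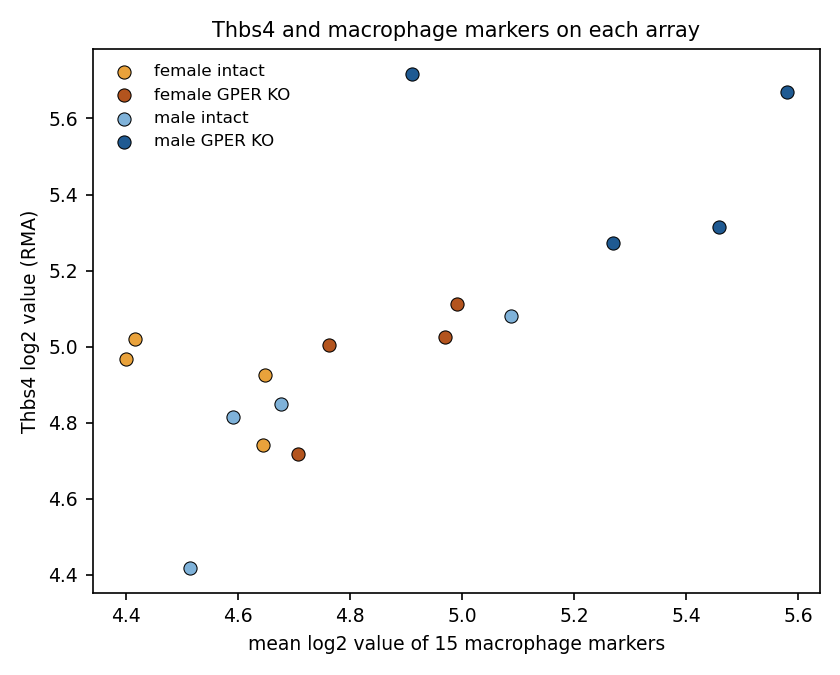
Thbs4 log2 value (vertical axis) against the mean log2 value of 15 macrophage markers (horizontal axis) on each of 16 arrays, coloured by group. Male KO arrays are highest on the vertical axis, and the one with the highest Thbs4 value (5.72) has a macrophage mean of 4.91, inside the intact male range. Within intact males and within KO females Thbs4 rises with the macrophage mean, and within the other groups the order differs.

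Fibroblast markers, which could carry Thbs2 and Thbs4, had 6 of 12 genes above 0 in males (median 0.05) and 8 of 12 in females (median 0.18), with 0 called in each and 3 and 1 at an unadjusted limma p under 0.05. Their list mean was 5.32 to 5.91 in KO and 5.36 to 5.89 in intact males, ranges that nearly coincide. In females it was 5.42 to 5.74 and 5.19 to 5.71. Without female intact 421 and 422, 11 of 12 lay above 0 in females. Within groups the fibroblast list correlated with Thbs4 at r = 0.126, and with Thbs2 at 0.371 on the brighter probe set and 0.432 on the dimmer one.

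Endothelial markers lay below 0 for 12 of 12 genes in both sexes (medians −0.33 in males and −0.25 in females), with 0 called and 2 and 1 at an unadjusted limma p under 0.05. In females 5 of 12 were above 0 without intact mice 421 and 422. Tendon and valve stroma, where Thbs4 and Comp are abundant, had 5 markers measured, of which 3 lay above 0 in males and 1 in females, with 0 called. Without female intact 421 and 422, 4 of the 5 lay above 0 in females, again with 0 called. Scx, a tendon transcription factor named after its values were seen, differed by 0.23 in males (unadjusted p = 0.0462, limma adjusted p = 0.482). The signals of 4 of the 5 markers, Comp among them, were below the array median, and the list mean was 2.94 to 3.10 in KO and 2.94 to 2.99 in intact males. Platelet markers, a store of Thbs1 in blood, had 6 of 10 genes above 0 in males (median 0.003) and 0 called, with 1 at an unadjusted p under 0.05. The part of these cell types in the thrombospondin values was not tested.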

How the data were processed

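RNA of ventricular cardiomyocytes from 16 mice was hybridised to Affymetrix GeneAtlas MG-430 PM arrays, with 4 mice per sex and genotype. The deposited values are log2 signals per probe set, which the authors obtained by RMA (per the labels, with Partek; versions not given in the sources used here). RMA pulls the arrays to one distribution and compresses low signals, so fold changes of dim probe sets such as those of Thbs2, Thbs3 and Comp may be understated. No raw scans, detection calls, array strips or scan dates were used. Depth has no meaning for arrays, and their number limits the precision. Nothing states more than that each array is 1 mouse, and replicate numbers are animal numbers that pair no mice.

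Of 45141 probe sets, 28898 have 1 gene in the platform annotation, 551 several and 15692 none. Symbols were updated through Entrez identifiers to RefSeq, which matched 28689. Each of 17097 genes was represented by its probe set with the highest mean. Group means over all 16 arrays were fitted with limma 3.58.1 in R 4.3.3 (lmFit, contrasts.fit, eBayes) and p-values adjusted by Benjamini-Hochberg over all genes; the second Thbs2 probe set was taken from the same fit over all probe sets. Single probe sets were also tested by two-sided exact permutation over 70 assignments within each sex. In a simulation of 17097 genes, 100 were shifted by 0.5 and 100 by 1 on the log2 scale. The female comparison called 84% and 97% with 11 false calls, and the male comparison 77% and 96% with 9. The simulated noise was normal and independent between genes and arrays. Differences that many genes of an array share, such as cell content, were absent, so these rates may not hold for the real arrays.

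The members and the lists of functions and cell type markers were chosen with earlier results of these data known, and the lists are described by counts and medians. Genes named in the text are the members, Comp, Gper1 and the 3 genes most like each member. From each function list they are the called genes (up to 4), or otherwise the 2 with the smallest p. From the cell type lists they are Mb, the most abundant cardiomyocyte marker, and the macrophage markers called in males. Others are said to have been named after their values were seen. Further markers (smooth muscle, neutrophil, lymphocyte, erythroid, mesothelial and Schwann cell lists) were measured and had 0 genes called in the comparisons of genotype within each sex. Alternatives were averaged probe sets of each gene, every probe set, a filter on dim genes (above percentile 40 on at least 4 arrays), quantile normalization again, median centring, array weights, trend and robust settings, 1 sex alone and each array left out. The omission of the pair 421 and 422 (female intact) and the alternatives for the dimmer Thbs2 probe set were chosen after seeing the data. Promoter bases came from RefSeq windows of build GRCm38.p6 and were matched for 3 of the 4 genes.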

Additional observations from a re-analysis of the deposited data

Results flagged for a closer look

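Among the 16 groups of 4 arrays tested (4 probe sets in 4 groups), the Thbs3 value of female GPER KO mouse 419 stood apart. It was 3.448 on the log2 scale, against 3.657 for the nearest of the other 3 mice of its group, a gap of 0.863 of the range of the group. Chance gives such a gap in about 1 in 20 groups. Without this mouse the female Thbs3 difference was 0.07, against 0.02 with all arrays, and it did not pass the test either way.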

How the results depend on the processing

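The Thbs4 difference in males kept its sign in all 24 alternatives (0.58 to 0.80) and passed the test in 18 of them. It did not pass with the male arrays alone (0.70, adjusted p = 0.0958) or without 5 of the single arrays. The mean of the sexes passed in 3 of 24 alternatives, with trend and robust settings (0.38, adjusted p = 0.0477) and without 2 single arrays. Thbs3 and the brighter Thbs2 probe set passed in no comparison of any alternative run, and their small differences changed sign in some. The dimmer Thbs2 probe set kept its sign in all alternatives, and its mean of the sexes passed in 1 of 21 (0.20, adjusted p = 0.0468, without female intact 421 and 422). With the mean of both Thbs2 probe sets, Thbs2 was 0.050 in the mean of the sexes, 0.031 in males and 0.037 for males minus females among KO mice. That last difference was 0.00052 after median centring and 0.0099 with array weights. Without female intact 421 and 422, Thbs2 was 0.039 in the mean of the sexes and Thbs4 −0.028 in females. With each array left out in turn, Thbs2 ran from −0.0036 to 0.106 in females, −0.114 to 0.0054 in males, −0.040 to 0.021 in the mean and −0.035 to 0.026 between KO sexes. Thbs3 ran from −0.038 to 0.074 in females and −0.047 to 0.045 between KO sexes. Thbs4 ran from −0.0049 to 0.135 in females, 0.315 to 0.426 in the mean, 0.579 to 0.799 in males and −0.219 to 0.0015 between intact sexes. The cause of these changes was not tested.

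Counts of called genes were 48 in females, 106 in males and 233 in the mean of the sexes. One sex alone gave 13 and 66, array weights 181 in males, and every probe set 369 in the mean. Leaving out 1 array gave 20 (without female intact 421) to 159 (without female intact 425) in females, 53 (without male intact 430) to 120 in males, and 162 to 296 in the mean. No paired analysis was possible because the animal numbers are not shared between groups. The 3 genes passed the filter on dim genes, which kept 12951. Low signals of Thbs2, Thbs3 and Comp limit what these arrays can show for them.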
